A study of Mus musculus with 20 samples.

Results

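Fabp1, Fabp2, Fabp6, Rbp2, Apoa1, Apoa4, Apob, Apoc3, Mttp and Dgat1 were chosen by symbol as genes that absorptive cells of the gut use to take up dietary lipid and retinol and to export them as lipoproteins. All 10 were present in both deposited count tables, among 11746 gene rows for GFP-high cells, 11779 for GFP-low cells and 11284 names unique in both. The rule used the symbols alone. RNA came from epithelial cells sorted from crypts of the small intestine of 8-week-old C57BL/6J mice. All mice carried the Lgr5-GFP reporter, whose fluorescence follows the promoter of a stem cell gene. They were Itgb7-/- (KO) or Itgb7+/+ (WT), and Itgb7 encodes a subunit of the integrins with which lymphocytes enter and stay in the gut. GFP-low cells, which the labels name TA (transit-amplifying) cells, were sorted beside GFP-high cells, named stem cells, so that 20 libraries formed 4 groups of 5. Libraries are called here by their label numbers, 2, 3, 4, 5 and 6 for KO and 1, 3, 6, 7 and 8 for WT. The labels do not say that a number is a separate mouse, so p-values measure the spread between these libraries, which may in part be technical.

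Fat digested in the gut lumen enters enterocytes as fatty acids and monoglycerides. Cytosolic fatty acid-binding proteins carry these to the endoplasmic reticulum, where acyltransferases rebuild triglyceride and the transfer protein Mttp loads it onto apolipoprotein B, and the particle then leaves the cell as a chylomicron with further apolipoproteins on its surface. This machinery is known as a property of villus enterocytes, the mature absorptive cells into which the descendants of crypt stem cells develop. Bile acids that dissolve the fat are reclaimed in the ileum, the distal end of the small intestine, where Fabp6 is the cytosolic bile acid-binding protein.

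The 10 genes lay on 6 chromosomes of GRCm38 (mm10; positions from GENCODE M21), and 4 of them were on chromosome 9. There Apoa1 (chr9:46228580-46230466, plus strand), Apoc3 (chr9:46232933-46235636, minus strand) and Apoa4 (chr9:46240696-46243459, plus strand) stood next to each other within 14.88 kb. Rbp2 (chr9:98486115-98509781, plus strand) was far from them on the same chromosome. The others were Fabp1 (chr6:71199827-71205023, plus strand), Fabp2 (chr3:122895072-122899506, plus strand), Mttp (chr3:138089854-138144968, minus strand), Fabp6 (chr11:43596049-43601540, minus strand), Apob (chr12:7977648-8016835, plus strand) and Dgat1 (chr15:76502015-76511953, minus strand). Mttp overlapped Trmt10a, which was also in the tables, so without strand information reads in the overlap cannot be assigned to either gene.

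Promoter windows of RefSeq on GRCm38.p6, from 250 bases before to 50 bases after the transcription start that RefSeq gives, were found for 8 of the 10 genes. That start lay inside the GENCODE gene for 6 of the 8, by 4422 bases for Rbp2, 1550 for Mttp, 148 for Apoa4, 52 for Fabp1, 50 for Apoa1 and 29 for Apob. The windows are shown for the 4 genes in which short motifs of intestinal transcription factors or a TATA box were matched. Capitals mark the matches: AGGTCA, the half-site of nuclear receptors; CANAGGTCA, a longer form that contains it; AGATAA for GATA factors; TTTATG for CDX factors; GTTAAT, a half-site of HNF1; and TATAAA on the gene's strand only. The others were searched on both strands, so a match on the opposite strand reads as its reverse complement.
Fabp1, chr6:71199629-71199928, plus strand: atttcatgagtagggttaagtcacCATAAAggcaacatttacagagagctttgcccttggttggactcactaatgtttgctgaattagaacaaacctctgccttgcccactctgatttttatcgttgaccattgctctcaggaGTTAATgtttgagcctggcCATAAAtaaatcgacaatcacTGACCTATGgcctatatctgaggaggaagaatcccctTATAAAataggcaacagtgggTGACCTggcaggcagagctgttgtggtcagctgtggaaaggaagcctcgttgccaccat
Rbp2, chr9:98490287-98490586, plus strand: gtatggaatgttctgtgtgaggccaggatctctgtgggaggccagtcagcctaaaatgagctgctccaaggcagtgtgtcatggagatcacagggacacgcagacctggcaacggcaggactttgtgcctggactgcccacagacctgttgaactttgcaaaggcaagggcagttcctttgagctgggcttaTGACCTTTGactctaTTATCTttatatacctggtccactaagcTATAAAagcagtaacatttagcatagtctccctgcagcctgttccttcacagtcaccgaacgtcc
Fabp6, chr11:43601513-43601812, minus strand: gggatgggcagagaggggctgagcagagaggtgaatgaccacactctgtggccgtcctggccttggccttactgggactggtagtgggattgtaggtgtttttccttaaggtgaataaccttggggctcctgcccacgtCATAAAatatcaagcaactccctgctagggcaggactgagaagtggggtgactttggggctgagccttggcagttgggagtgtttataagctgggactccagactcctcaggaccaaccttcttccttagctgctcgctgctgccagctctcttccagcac
Apob, chr12:7977427-7977726, plus strand: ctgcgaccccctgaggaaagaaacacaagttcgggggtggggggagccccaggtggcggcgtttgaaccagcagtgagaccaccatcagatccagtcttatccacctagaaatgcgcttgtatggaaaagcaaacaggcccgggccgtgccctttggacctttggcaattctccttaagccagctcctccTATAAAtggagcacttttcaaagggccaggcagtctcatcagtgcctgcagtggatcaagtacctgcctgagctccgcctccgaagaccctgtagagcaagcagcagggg
The Fabp1 window held AGGTCA with first bases at -67 and -9 from the start site, TTTATG at -226 and -88, GTTAAT at -107 and TATAAA at -30. In the Rbp2 window AGGTCA lay at -58, AGATAA at -43 and TATAAA at -15, and the longer CANAGGTCA was matched at -67 in Fabp1 and at -58 in Rbp2. Fabp6 held TTTATG at -111, and Apob held TATAAA at -60. Of 32851 windows of the same length, 16.3% held AGGTCA, 1.61% CANAGGTCA, 11.2% AGATAA, 11.9% TTTATG, 7.1% GTTAAT and 8.32% TATAAA. CAAAGTCCA, a core of HNF4 sites that 0.475% of windows held, was matched in none of the 8. The windows of Fabp2, Apoa1, Apoa4 and Mttp held none of the motifs searched. These matches describe letters in the window and not binding.

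Library totals ran from 20900404 to 27838392 counts. No row of either table was named Itgb7, and the libraries' genotypes were therefore not checked against the deleted gene. Lgr5 averaged 7.00 ± 2.38 CPM in KO and 12.9 ± 6.71 CPM in WT GFP-low libraries, against 105 ± 11.1 CPM in KO and 102 ± 20.0 CPM in WT GFP-high libraries (mean ± SD, n = 5), where CPM is the count scaled to the library's total after TMM correction over all 20 libraries. GFP-low libraries also held the transcripts of other lineages. Markers of Paneth cells, which secrete antimicrobial peptides in the crypt, were summed as shares of the TMM-corrected total, not of raw counts. In GFP-low libraries they made up 9.28% ± 4.08 in KO and 16.1% ± 9.71 in WT. In GFP-high libraries they made up 3.26% ± 1.10 in KO and 3.70% ± 2.05 in WT. Markers of goblet cells made up 4.07% ± 1.09 of the same total in KO and 4.45% ± 1.89 in WT GFP-low libraries. In GFP-high libraries goblet markers made up 0.297% ± 0.0951 in KO and 0.446% ± 0.149 in WT. Leukocyte markers were sparse, with 9 of 13, including Ptprc, Cd3e and Cd8a, not in both tables and the other 4 summing to at most 38.2 CPM in any library. Both libraries numbered KO 2 stood apart from the other KO libraries in the lipid genes, and results that rest on them are given with and without them.

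The question of where along the stem cell hierarchy these genes are used was addressed by setting GFP-low against GFP-high cells. The genes were far more abundant in GFP-low cells of both genotypes. In KO mice 9 of 10 were higher in GFP-low cells at an adjusted p under 0.05 in edgeR's quasi-likelihood test, beside 26.2% of all genes tested, and in WT mice 10 of 10 were higher, beside 22% of all genes. The median log2 fold change of the 10 was 2.35 in KO and 2.88 in WT cells, against -0.01 over all genes in each. The 5 GFP-low libraries all lay above the 5 GFP-high libraries for 9 of the 10 genes in each genotype, a pattern shown by 18.1% of all genes in KO and 15% in WT. The exception in both was Apob. Summed, the 10 genes had 1269 to 2458 CPM (median 1580) in KO and 1856 to 3647 CPM (median 2357) in WT GFP-low libraries, against 281 to 577 CPM (median 334) in KO and 320 to 447 CPM (median 359) in WT GFP-high libraries. In bulk libraries, fewer expressing cells and less RNA per expressing cell cannot be told apart.

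**Figure D1:**
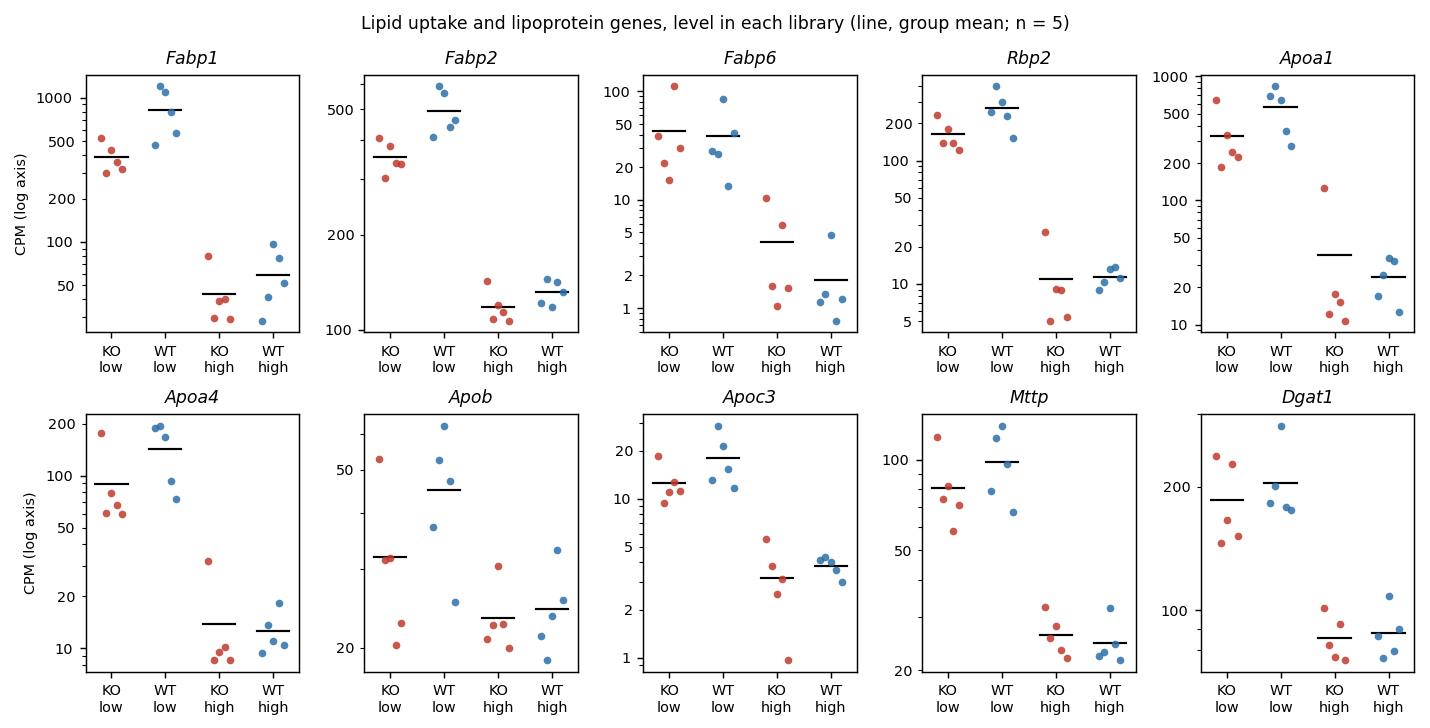
Level of each lipid uptake and lipoprotein gene in CPM (log axis) in KO and WT GFP-low and KO and WT GFP-high libraries; points are libraries and lines are group means (n = 5). GFP-low libraries sat above GFP-high libraries for every gene but Apob, and 1 KO GFP-high library, number 2, stood above the other 4 for Rbp2, Apoa1 and Apoa4.

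Fabp1, the fatty acid-binding protein of liver and proximal gut, was the most abundant of the 10 per length of transcript in GFP-low cells. In GFP-low cells it had 526, 299, 434, 361 and 319 CPM in KO libraries 2 to 6, and 473, 1203, 1095, 802 and 572 CPM in WT libraries 1, 3, 6, 7 and 8. In GFP-high cells the same libraries had 79.4, 29.9, 38.8, 40.1 and 29.2 CPM in KO, and 28.4, 41.7, 97.5, 77.8 and 51.6 CPM in WT. The lowest GFP-low library was thus above the highest GFP-high library in each genotype, and all KO GFP-low libraries but number 2 were below every WT GFP-low library. GFP-low over GFP-high, the log2 fold change of Fabp1 was 3.17 ± 0.26 in KO (SE, adjusted p = 6.18e-07) and 3.80 ± 0.36 in WT cells (adjusted p = 8.40e-06).

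Fabp2, the intestinal fatty acid-binding protein, varied least between libraries relative to its mean in all 4 groups. Its GFP-low levels were 407, 302, 381, 338 and 336 CPM in KO libraries 2 to 6, and 408, 591, 564, 439 and 463 CPM in WT libraries 1, 3, 6, 7 and 8. Its GFP-high levels were 143, 108, 119, 114 and 107 CPM in KO, and 121, 144, 118, 142 and 132 CPM in WT. Fabp2 was thus already present at over 100 CPM in every GFP-high library, where its CPM exceeded those of the other 9 genes, and its GFP-low over GFP-high difference was smaller than that of Fabp1. It differed by a log2 fold change of 1.59 ± 0.11 in KO (adjusted p = 1.08e-07) and 1.91 ± 0.12 in WT cells (adjusted p = 4.26e-07). Within libraries the ratio of Fabp1 to Fabp2 CPM had a median of 1.07 in KO and 1.83 in WT GFP-low libraries, against 0.325 in KO and 0.391 in WT GFP-high libraries.

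Rbp2, which binds retinol taken up from the diet, had the largest log2 fold change in KO cells and, with Apoa1, in WT cells. Its GFP-low levels were 233, 139.9, 179.9, 139 and 121 CPM in KO libraries 2 to 6, and 249, 399.9, 296, 229.7 and 152 CPM in WT libraries 1, 3, 6, 7 and 8. GFP-high levels of Rbp2 were 26.3, 5.03, 9.09, 8.94 and 5.36 CPM in KO, and 8.90, 10.3, 13.3, 13.6 and 11.1 CPM in WT. KO 2 stood well above the other KO GFP-high libraries, and the populations did not overlap. Its log2 fold change was 3.91 ± 0.40 in KO (adjusted p = 3.49e-06) and 4.53 ± 0.25 in WT cells (adjusted p = 1.41e-07). Without the GFP-high library of KO 2 it was 4.53 ± 0.25 in KO cells as well.

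Fabp6, the ileal bile acid-binding protein, spread widest in relative terms in GFP-low cells. It had 38.4, 22, 15.1, 112 and 30.2 CPM in KO GFP-low libraries 2 to 6, and 28, 26.7, 85.3, 13.4 and 41.5 CPM in WT GFP-low libraries 1, 3, 6, 7 and 8. In GFP-high cells Fabp6 had 10.5, 1.59, 1.05, 5.80 and 1.52 CPM in KO, and 1.14, 1.36, 4.69, 0.765 and 1.22 CPM in WT. KO 5 and WT 6 were the highest GFP-low libraries of their genotypes, and their GFP-high libraries ranked second and highest. Fabp6 had a log2 fold change, GFP-low over GFP-high, of 3.42 ± 0.65 in KO (adjusted p = 0.000628) and 4.42 ± 0.57 in WT cells (adjusted p = 7.48e-05). It was 2.71 in KO without the GFP-low library of KO 5, 4.12 without the GFP-high library of KO 2, and 5.13 in WT without the GFP-high library of WT 6.

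Apoa1, the main protein of high-density lipoprotein, and its neighbour Apoa4, which is carried on chylomicrons, were both higher in GFP-low cells. Apoa1 had 648, 185, 336, 246 and 224 CPM in KO GFP-low libraries 2 to 6, and 699, 831, 646, 359 and 275 CPM in WT GFP-low libraries 1, 3, 6, 7 and 8. GFP-high levels of Apoa1 were 126, 12.1, 17.8, 15.3 and 10.8 CPM in KO, and 16.9, 25.1, 34.4, 32.8 and 12.5 CPM in WT. The populations did not overlap, but KO 2 was 7.06 times the next highest KO library in GFP-high cells and 1.92 times the next in GFP-low cells. The log2 fold change of Apoa1 was 3.19 ± 0.66 in KO (adjusted p = 0.00124) and 4.53 ± 0.37 in WT cells (adjusted p = 2.81e-06), and in KO it was 4.56 ± 0.37 without the GFP-high library of KO 2.

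Apoa4 had 177, 60.3, 79.6, 67.2 and 59.6 CPM in KO GFP-low libraries 2 to 6, and 188, 195, 168, 93.4 and 73.5 CPM in WT GFP-low libraries 1, 3, 6, 7 and 8. In GFP-high cells Apoa4 had 32.1, 8.60, 9.53, 10.1 and 8.56 CPM in KO, and 9.45, 13.7, 11.1, 18.4 and 10.4 CPM in WT. As for Apoa1, KO 2 stood above the other KO libraries in both populations. For Apoa4 the log2 fold change was 2.70 ± 0.41 in KO (adjusted p = 0.000108) and 3.51 ± 0.29 in WT cells (adjusted p = 3.25e-06). Apoc3, the third gene of the cluster and an inhibitor of lipoprotein lipase, had the lowest mean CPM of the 10 in GFP-low cells, although in WT 7 Fabp6 was lower still. Apoc3 averaged 12.6 ± 3.56 CPM in KO (9.35 to 18.6) and 18 ± 7.05 CPM in WT GFP-low libraries (11.6 to 28.7), against 3.19 ± 1.68 CPM in KO (0.969 to 5.54) and 3.79 ± 0.525 CPM in WT GFP-high libraries (2.98 to 4.29; SD, n = 5). Its log2 fold change was 2.00 ± 0.34 in KO (adjusted p = 0.000237) and 2.25 ± 0.24 in WT cells (adjusted p = 1.99e-05). Within libraries the ratio of Apoa4 to Apoa1 CPM had a median of 0.274 in KO and 0.260 in WT GFP-low libraries, against 0.664 in KO and 0.560 in WT GFP-high libraries. Its ranges did not overlap in WT cells (0.234 to 0.269 in GFP-low, 0.321 to 0.831 in GFP-high), but did in KO cells (0.237 to 0.326 in GFP-low, 0.255 to 0.796 in GFP-high).

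Apob, the structural protein on which chylomicrons are built, differed least. It had 52.9, 31.4, 31.8, 20.3 and 22.8 CPM in KO GFP-low libraries 2 to 6, and 37.2, 52.7, 62.7, 47.3 and 25.4 CPM in WT GFP-low libraries 1, 3, 6, 7 and 8. GFP-high levels of Apob were 20.9, 22.5, 30.5, 22.7 and 20.0 CPM in KO, and 21.3, 18.8, 23.6, 33.1 and 25.6 CPM in WT. The populations overlapped in both genotypes. The log2 fold change was 0.46 ± 0.22 in KO cells, with a 95% interval of -0.01 to 0.93, and did not pass (adjusted p = 0.0941), while it was 0.88 ± 0.22 in WT cells (adjusted p = 0.00635). In KO it was 0.59 (adjusted p = 0.0324) without the GFP-low library of KO 5 and 0.16 (adjusted p = 0.452) without both libraries of KO 2, in a range of adjusted p from 0.0324 to 0.452 over all alternatives. Scaled by library totals, Apob did not pass in WT cells either (0.55 ± 0.24, adjusted p = 0.0679; range over alternatives 0.000312 to 0.0679).

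Mttp, which transfers lipid onto Apob, and Dgat1, which attaches the last fatty acid of triglyceride, had moderate differences. Mttp averaged 80.8 ± 23.2 CPM in KO (57.9 to 119) and 98.2 ± 26.1 CPM in WT GFP-low libraries (67.2 to 130.1), against 26.2 ± 4.11 CPM in KO (21.9 to 32.3) and 24.7 ± 4.27 CPM in WT GFP-high libraries (21.6 to 32.1). Mttp had a log2 fold change of 1.64 ± 0.17 in KO (adjusted p = 4.17e-06) and 1.99 ± 0.18 in WT cells (adjusted p = 6.21e-06). Dgat1 averaged 186 ± 43.4 CPM in KO (146 to 238) and 204 ± 44.5 CPM in WT GFP-low libraries (175 to 281), against 85.8 ± 10.8 CPM in KO (75.8 to 101) and 88.3 ± 12.5 CPM in WT GFP-high libraries (76.4 to 109). Its log2 fold change was 1.13 ± 0.14 in KO (adjusted p = 2.27e-05) and 1.21 ± 0.15 in WT cells (adjusted p = 4.39e-05). The populations did not overlap for either gene. Apob, Mttp and Dgat1 thus formed the lower end of the fold changes together with Fabp2, and Rbp2, Apoa1, Fabp6 and Fabp1 the upper end.

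**Figure D2:**
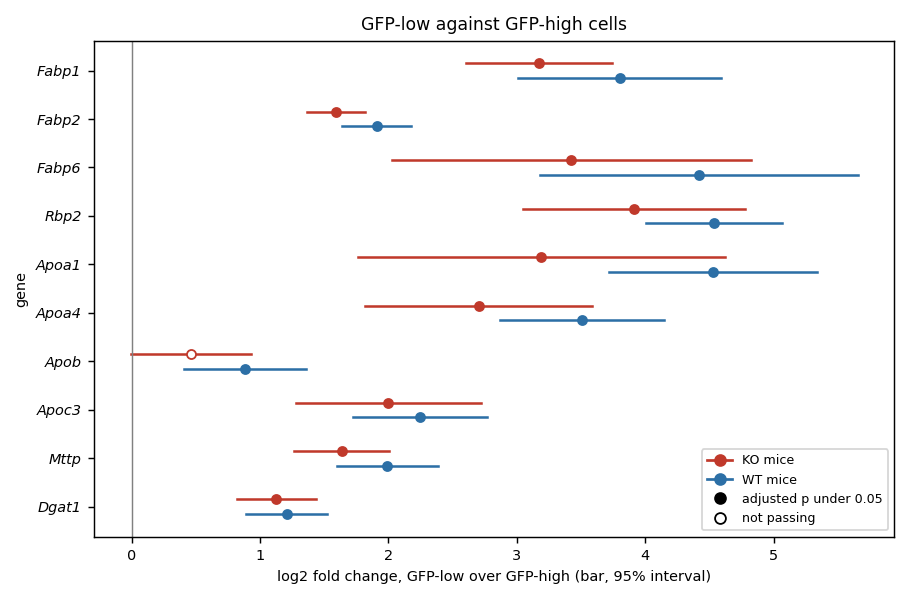
Log2 fold change of each gene, GFP-low over GFP-high, in KO and WT cells, with 95% intervals from edgeR. Estimates ran from 0.46 (Apob) to 3.91 (Rbp2) in KO and from 0.88 (Apob) to 4.53 (Rbp2) in WT cells, and the KO estimate was the smaller of each pair.

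Taken number by number, GFP-low exceeded GFP-high in all 5 KO and all 5 WT pairs of libraries for 9 genes, and in 4 of 5 KO and 4 of 5 WT pairs for Apob. The log2 difference of Fabp2 was 1.48 to 1.68 in KO and 1.63 to 2.26 in WT pairs, and that of Dgat1 was 0.82 to 1.30 in KO and 0.96 to 1.39 in WT pairs. Apoa1 spread from 2.37 to 4.37 in KO and from 3.45 to 5.37 in WT pairs, and Fabp6 from 1.87 to 4.25 in KO and from 3.98 to 5.00 in WT pairs. The lowest Apoa1 and Fabp6 differences in KO were those of KO 2, in which both genes were high in the GFP-high library.

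Scaling bore on the count. With library totals alone, the median log2 fold change of all genes moved by more than 0.1, to -0.27 in KO and -0.37 in WT cells, and the called genes split into 1777 higher and 4737 lower in KO and 1188 higher and 4892 lower in WT. With TMM scaling they split into 2954 higher and 2748 lower in KO and 2478 higher and 2416 lower in WT. Of the 10 genes 9 were higher in each genotype under library totals.

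Per kilobase of exon the order of levels changed between populations. In GFP-low cells Fabp1 led, at 701 ± 168 CPM per kb in KO and 1499 ± 574 in WT, and its range lay above that of Fabp2, at 365 ± 42.7 in KO and 511 ± 83.3 in WT. Apoa1 came next, at 265 ± 151 CPM per kb in KO and 455 ± 191 in WT, then Rbp2 at 169 ± 46.8 in KO and 276 ± 95 in WT, and the ranges of Fabp2, Apoa1, Rbp2 and the next gene, Fabp6, each overlapped with their neighbour. In GFP-high cells Fabp2 led, at 122 ± 15.3 CPM per kb in KO and 136 ± 12.4 in WT, but its range overlapped that of Fabp1, at 78.6 ± 37.4 in KO and 107 ± 50.6 in WT. Apob was lowest in all 4 groups, at 2.29 ± 0.922 CPM per kb in KO and 3.23 ± 1.03 in WT GFP-low cells, against 1.67 ± 0.299 in KO and 1.76 ± 0.390 in WT GFP-high cells. Its exons span 13934 bases, the longest of the 10.

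Most markers of enterocytes outside the 10 genes were also higher in GFP-low cells. Of 14 brush border and absorptive markers measured in both populations, 11 were higher and 1 lower in KO GFP-low cells and 11 were higher in WT GFP-low cells. Of all genes tested, 26.2% were higher and 24.4% lower in KO, and 22% were higher and 21.4% lower in WT GFP-low cells. Alpi, Lct and Slc15a1 were not in both tables and were not compared between populations. Alpi and Lct were tested between genotypes in GFP-low cells only. The 14 markers summed to 1367 to 1643 CPM in KO and 1548 to 1918 CPM in WT GFP-low libraries, against 595 to 685 CPM in KO and 644 to 760 CPM in WT GFP-high libraries. Of 12 stem cell markers, 12 were lower in GFP-low cells of each genotype. All 10 goblet, 12 Paneth and 10 enteroendocrine markers measured were higher in GFP-low cells of both genotypes. Of 7 markers of tuft cells, 6 were higher in KO and 7 in WT GFP-low cells. The part of these cell types in the differences of the lipid genes was not tested.

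The other genes of lipid absorption, a list of 94 in 7 roles, were for the larger part higher in GFP-low cells. In KO cells 54 of 85 tested were higher, 13 lower and 18 short of the threshold, and the median log2 fold change was 0.63. In WT cells 54 were higher, 10 lower and 21 short of it, at a median of 0.67. Beside these counts, and those by role, stand the shares of all genes tested. These were 26.2% higher and 24.4% lower in KO, and 22% higher and 21.4% lower in WT. At the brush border 7 of 9 were higher and 1 lower in each genotype, among them the cholesterol transporter Npc1l1 (2.49 ± 0.24 in KO, 2.39 ± 0.15 in WT) and the carboxylesterases Ces2e (2.17 ± 0.15 in KO, 2.31 ± 0.22 in WT) and Ces2a (1.27 ± 0.11 in KO, 1.37 ± 0.23 in WT). The fatty acid transport protein Slc27a4 was also higher (1.58 ± 0.18 in KO, 1.81 ± 0.19 in WT), while its relative Slc27a2 was lower (-0.99 ± 0.13 in KO, -0.98 ± 0.14 in WT). Cd36, a fatty acid receptor, was not in both tables and was tested between genotypes in GFP-low cells only.

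In acyl-CoA formation and re-esterification 11 of 17 genes were higher and 4 lower in KO cells, and 11 were higher and 3 lower in WT cells. Mogat2, which rebuilds diglyceride from absorbed monoglyceride, was higher by 2.78 ± 0.28 in KO and 3.07 ± 0.27 in WT, and Agpat2, of phosphatidic acid synthesis, by 1.94 ± 0.25 in KO and 1.85 ± 0.15 in WT. Soat1, which esterifies cholesterol, was lower (-1.97 ± 0.14 in KO, -1.90 ± 0.13 in WT), while its relative Soat2 was higher (1.17 ± 0.17 in KO, 1.23 ± 0.22 in WT). Lipid droplet genes and lipases were divided, with 5 of 9 higher and 2 lower in KO and 6 higher and 1 lower in WT. Cideb, which takes part in loading lipoproteins with lipid, was higher (1.24 ± 0.10 in KO, 1.52 ± 0.17 in WT), as were the droplet proteins Cidec (1.13 ± 0.21 in KO, 2.10 ± 0.34 in WT) and Bscl2 (0.92 ± 0.10 in KO, 0.76 ± 0.11 in WT). The droplet coat protein Plin2 was lower in KO (-0.63 ± 0.10) and did not pass in WT (-0.42 ± 0.18, adjusted p = 0.0790).

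Lipoprotein assembly and export held the most even group, with 13 of 15 genes higher in KO and 14 of 15 in WT, and none lower. P4hb, the partner subunit of Mttp, was higher by 1.56 ± 0.11 in KO and 1.44 ± 0.14 in WT. Tm6sf2, which supports lipidation, was higher by 1.93 ± 0.12 in KO and 1.99 ± 0.18 in WT, and the cargo receptor Surf4 by 1.21 ± 0.10 in KO and 1.02 ± 0.11 in WT. Of 8 retinoid genes 3 were higher and 2 lower in KO, and 2 higher and 2 lower in WT. The WT counts were near the shares of all genes, 22% higher and 21.4% lower. The retinal dehydrogenase Aldh1a1 was higher (2.62 ± 0.37 in KO, 3.34 ± 0.29 in WT), as was Rdh7 (0.71 ± 0.14 in KO, 0.91 ± 0.23 in WT), and the reductase Dhrs4 was lower (-0.90 ± 0.08 in KO, -0.80 ± 0.14 in WT).

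Of 6 bile acid genes 4 were higher and 1 lower in KO, and 4 higher and none lower in WT. The subunits of the basolateral bile acid exporter were higher too, by 3.30 ± 0.34 in KO and 3.49 ± 0.22 in WT for Slc51a, and 2.89 ± 0.41 in KO and 3.53 ± 0.38 in WT for Slc51b. The export pump Abcc3 was higher by 1.08 ± 0.13 in KO and 0.96 ± 0.11 in WT. Among 21 transcription factors of lipid genes 11 were higher and 3 lower in KO, and 10 higher and 3 lower in WT. Creb3l3, a membrane-bound factor known to act on apolipoprotein genes, was higher by 2.51 ± 0.22 in KO and 2.38 ± 0.53 in WT, and Hnf4g, a nuclear receptor of the gut, by 2.08 ± 0.21 in KO and 2.15 ± 0.21 in WT. Maf (2.23 ± 0.21 in KO, 2.87 ± 0.32 in WT), the bile acid receptor Nr1h4 (1.17 ± 0.14 in KO, 1.33 ± 0.18 in WT) and Klf4 (1.32 ± 0.13 in KO, 1.33 ± 0.35 in WT) were higher too.

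**Figure D3:**
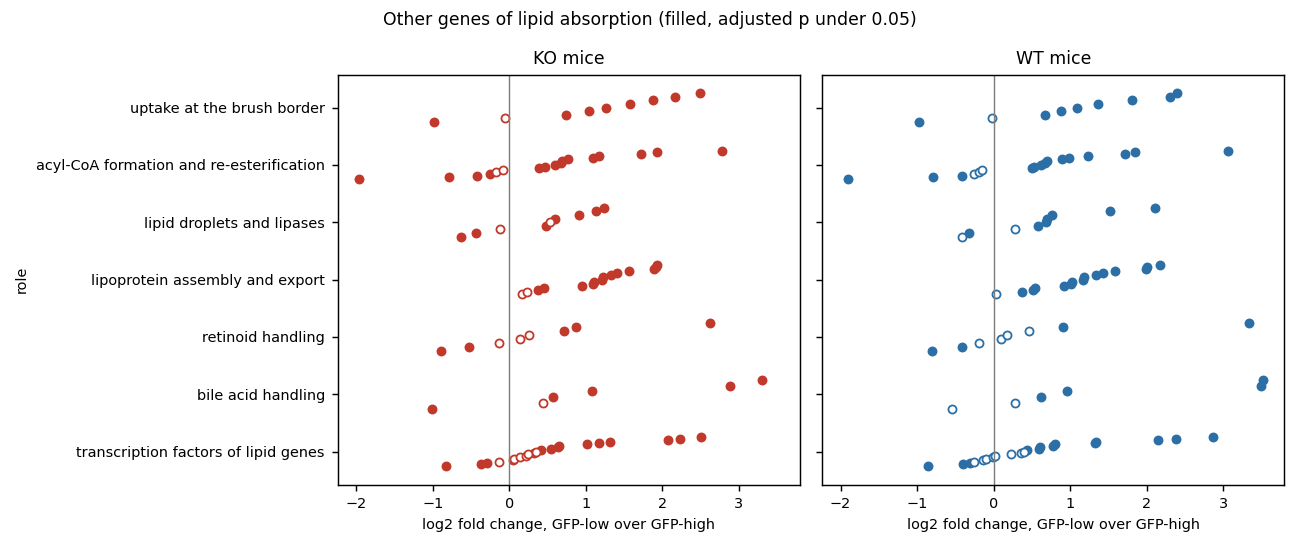
Log2 fold change, GFP-low over GFP-high, of the other genes of lipid absorption by role in KO and WT cells; each point is a gene, filled where the adjusted p was under 0.05. Lipoprotein assembly and export had no filled point below 0, and retinoid handling was spread to both sides.

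The next question was whether loss of Itgb7 changed these genes within a population. In GFP-low cells the KO levels were lower for most, but none passed. With edgeR 0 of 10 genes had an adjusted p under 0.05, beside 0.00849% of all genes, which is 1 gene of 11778. At an unadjusted p under 0.05 there were 4 of 10, Fabp1, Fabp2, Rbp2 and Apoa1, all 4 lower in KO, beside 6.32% of all genes, or 3.39% counted as lower in KO. The log2 fold change, KO over WT, was below 0 for 9 of 10, beside 50.8% of all genes, with a median of -0.51 against 0.00 over all genes. With DESeq2, 1 of the 10 passed, Fabp1, beside 0.102% of all genes, which is 12 genes.

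Fabp1 had the largest difference, with a mean of 388 ± 93.1 CPM in KO and 829 ± 318 CPM in WT GFP-low libraries (SD, n = 5) and a log2 fold change of -1.10 ± 0.25. Its unadjusted p was 0.000608 and its adjusted p 0.550 with edgeR, and the adjusted p was 0.00796 with DESeq2, in a range of 0.00521 to 0.994 over all alternatives. For Fabp2 the 5 KO libraries all lay below the 5 WT libraries, which 0.434% of all genes showed. The margin was narrow, between 407 CPM in KO 2 and 408 CPM in WT 1, and the log2 fold change of Fabp2 was -0.48 ± 0.13 (adjusted p = 0.731). Rbp2 was at -0.71 ± 0.23 (adjusted p = 0.744), Apoa1 at -0.78 ± 0.35 (0.782) and Apoa4 at -0.70 ± 0.33 (0.788). KO and WT libraries overlapped for Rbp2, Apoa1 and Apoa4, since KO 2 lay among the WT libraries and WT 8 among the KO libraries. Apob (-0.50 ± 0.27), Apoc3 (-0.52 ± 0.25), Mttp (-0.28 ± 0.21) and Dgat1 (-0.13 ± 0.17) had adjusted p from 0.788 to 0.933. Fabp6 alone was above 0, at 0.16 ± 0.53, and its 95% interval of -0.99 to 1.30 left room for a large difference either way.

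In GFP-high cells the levels of KO and WT libraries overlapped for all 10 genes, while 0.931% of all genes lay wholly lower and 0.948% wholly higher in KO. With edgeR 0 of 10 passed, beside 0% of all genes, and 0 of 10 had an unadjusted p under 0.05, beside 9.79% of all genes, or 4.98% counted as lower in KO. With DESeq2 0 of 10 passed as well, beside 1.22% of all genes, which is 143 genes. Below 0 were 6 of 10, beside 48.6% of all genes. Fabp6 was highest at 1.16 ± 0.64, followed by Apoa1 at 0.57 ± 0.60, and Fabp1 was lowest at -0.45 ± 0.32. The estimates were tightest for Fabp2 (-0.15 ± 0.10, 95% interval -0.35 to 0.05), Dgat1 (-0.04 ± 0.11, -0.27 to 0.20) and Mttp (0.09 ± 0.13, -0.19 to 0.38). Rbp2 was at -0.07 ± 0.37, Apoa4 at 0.13 ± 0.34, Apob at -0.06 ± 0.16 and Apoc3 at -0.25 ± 0.33.

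**Figure D4:**
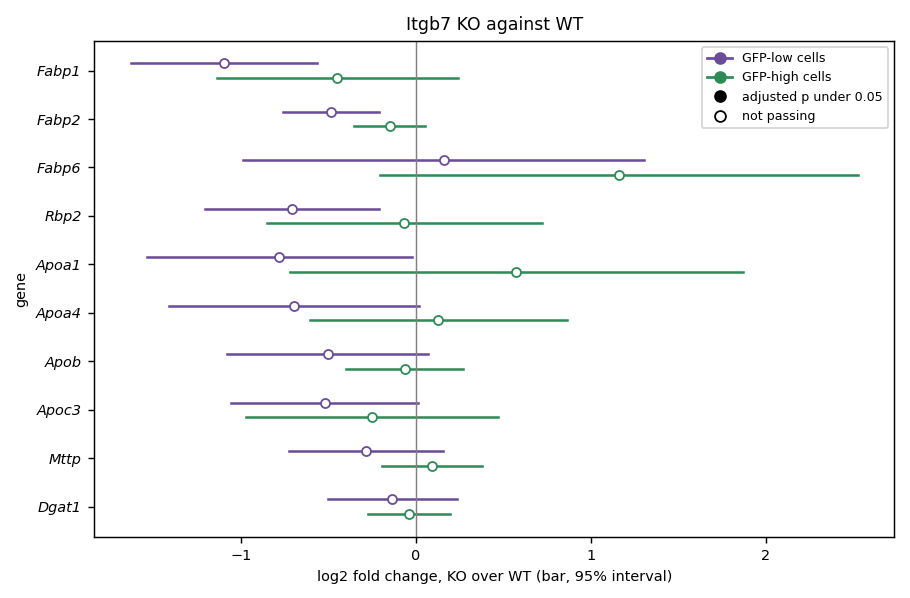
Log2 fold change of each gene, KO over WT, in GFP-low and in GFP-high cells, with 95% intervals from edgeR. Of the 10 genes 9 were below 0 in GFP-low cells, with Fabp1 lowest at -1.10, and 6 were below 0 in GFP-high cells, and none passed an adjusted p of 0.05 with edgeR.

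In GFP-high cells the signs of Apoa1 and Apoa4 turned when KO 2 was left out. Without its GFP-high library Apoa1 was at -0.80 ± 0.27 and Apoa4 at -0.45 ± 0.18, in place of values above 0, and Rbp2 was at -0.68 ± 0.21, against -0.07 with it. Leaving out other single libraries turned the signs of Rbp2, Apob and Dgat1, whose values then reached at most 0.11. Without KO 2, unadjusted p-values were under 0.05 for 5 of 10 genes, beside 9.58% of all genes, and still 0 passed after adjustment. Without the GFP-low library of KO 2 the GFP-low differences widened, to -1.18 ± 0.30 for Apoa1 and -1.10 ± 0.26 for Apoa4, with an unadjusted p under 0.05 for 8 of 10, beside 7.42% of all genes, and 0 passing. As KO 2 was the highest KO library for most of these genes, its removal lowers the KO mean by construction.

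Whether the KO effect differed between populations was tested as an interaction over all 20 libraries, taken as separate and not as pairs. With edgeR 0 of 10 genes passed, beside 0% of all genes, and with DESeq2 0 passed too, while 0 of 10 had an unadjusted p under 0.05, beside 3.13% of all genes, or 1.68% counted below 0. All 10 estimates were below 0, beside 49.1% of all genes, from -1.35 ± 0.79 for Apoa1 to -0.09 ± 0.22 for Dgat1, with Fabp2 at -0.33 ± 0.16 (unadjusted p = 0.0527). Without both libraries of KO 2 the 10 were again below 0, from -0.73 ± 0.31 for Apob to -0.12 ± 0.21 for Dgat1, and 0 passed. Without the GFP-low library of KO 2 alone, 5 of 10 had an unadjusted p under 0.05, beside 4.44% of all genes, and 0 passed. Without its GFP-high library alone, Apoa1 was at 0.026 and Apoc3 at 0.037. With same-numbered GFP-low and GFP-high libraries taken as pairs in edgeR, 0 of all 11284 genes passed as well. A difference between KO and WT cells in the step between populations was thus not shown for any of the 10.

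The other genes of lipid absorption gave no calls between genotypes. In GFP-low cells 0 of 88 passed with edgeR and 13 (14.8%) had an unadjusted p under 0.05, beside 6.32% of all genes. The smallest p were those of Ces2a (-0.53 ± 0.16) and Creb3l3 (-0.93 ± 0.28), both with an adjusted p of 0.744, and Cd36 was at -0.77 ± 0.31 (adjusted p = 0.752). In GFP-high cells 0 of 85 passed and 10 (11.8%) had an unadjusted p under 0.05, near the 9.79% of all genes. There 48 of the 85 were below 0, KO over WT. Ces2a (-0.41 ± 0.19) and Creb3l3 (-1.03 ± 0.47) were among these 48, with edgeR adjusted p of 0.500 and 0.499. In GFP-low cells enterocyte markers were below 0, KO over WT, for 14 of 16, and 4 had an unadjusted p under 0.05 (median -0.23). Those measured in both populations summed to 1367 to 1643 CPM in KO and 1548 to 1918 CPM in WT GFP-low libraries. Paneth markers were below 0 for 11 of 12 in GFP-low cells, with 0 at an unadjusted p under 0.05 (median -0.63). Their summed level was 25687 to 129453 CPM in KO and 61412 to 267933 CPM in WT GFP-low libraries. Stem cell markers were below 0, KO over WT, for 9 of 12 in GFP-low cells, and 6 of 12 had an unadjusted p under 0.05 (median -0.24; summed level 840 to 1310 CPM in KO and 886 to 1327 CPM in WT). Cell cycle genes were above 0 for 10 of 10 in GFP-low cells, 2 at an unadjusted p under 0.05 (median 0.27; summed level 836 to 1117 CPM in KO and 662 to 1009 CPM in WT). In GFP-high cells goblet markers were below 0 for 10 of 10 (median -0.63, 6 at an unadjusted p under 0.05). Enteroendocrine markers were below 0 for 10 of 10 there (median -0.98, 7 at an unadjusted p under 0.05). Markers of tuft cells were below 0 for 6 of 7 (median -1.05, 4 at an unadjusted p under 0.05), and Paneth markers for 9 of 12 (median -0.16, 0). Cell cycle genes had a median of 0.31 in GFP-high cells, with 5 of 10 at an unadjusted p under 0.05. No marker or cycle gene of these lists passed after adjustment with edgeR, and the part of these lists in the genotype differences of the 10 genes was not tested.

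Within groups the 10 genes varied more than most. The SD of log2 CPM between the 5 libraries of a group had a median over the 10 genes of 0.38 in KO and 0.52 in WT GFP-low cells, against 0.20 in KO and 0.21 in WT for the 8238 genes whose log2 CPM averaged 3 or more. In GFP-high cells it was 0.70 in KO and 0.28 in WT, against 0.16 in KO and 0.19 in WT for all genes. Libraries tended to be high or low for many of the genes at once. KO 2 was the highest KO library for 9 of 10 genes in GFP-low cells, all but Fabp6, and for 9 of 10 in GFP-high cells, all but Apob. Among WT GFP-low libraries number 3 was highest for 6 genes and number 6 for the other 4, and number 8 was lowest for 7.

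**Figure D5:**
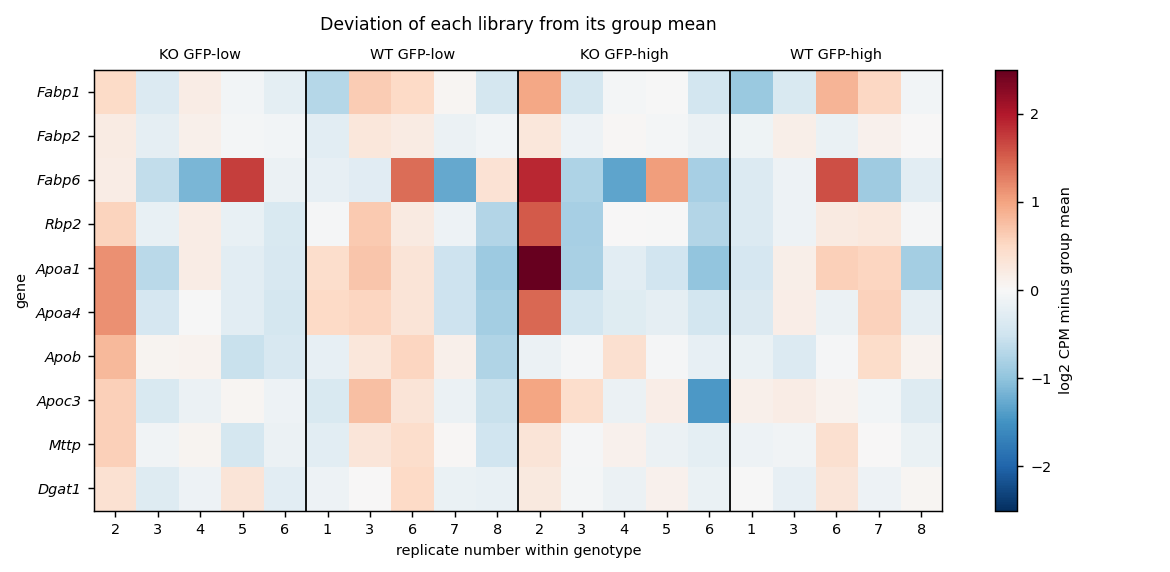
Deviation of log2 CPM of each gene from its group mean in every library, by replicate number within genotype and population. KO 2 was above its group mean for most genes in both populations, and Fabp6 followed another order, with KO 5 and WT 6 high.

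Averaged over the 9 genes other than Fabp6, KO 2 deviated from its group mean by 0.66 in GFP-low and 0.91 in GFP-high cells on the log2 scale, WT 3 by 0.46 in GFP-low cells and WT 8 by -0.56 in GFP-low cells. Deviations of the 36 pairs among these 9 genes had Pearson r from 0.33 to 0.92 with a median of 0.63 over 20 libraries. Over 18 libraries without KO 2 they had r from 0.18 to 0.84 with a median of 0.48. In GFP-low libraries alone r ran from 0.49 to 0.98 (median 0.74), and in GFP-high libraries alone from -0.13 to 0.93 (median 0.57). Apob was apart in GFP-high libraries, with r from -0.13 with Dgat1 to 0.32 with Fabp1. The 9 pairs with Fabp6 had a median of 0.40 (-0.22 to 0.76) over 20 libraries, and of 0.07 without KO 2. These points share libraries and scaling, and the values are descriptive. In KO 2 the Paneth marker sum was 25687 CPM in GFP-low cells, against 89881 to 129453 CPM in the other 4 KO libraries, and 18569 CPM in GFP-high cells, against 26589 to 46171 CPM. Its summed enterocyte markers were 1643 CPM in GFP-low cells, against 1367 to 1601 CPM in the other 4, and 677 CPM in GFP-high cells, against 595 to 685 CPM. KO 2 also lay outside the other 4 in GFP-low cells for goblet markers (25766 CPM, against 38264 to 56056) and enteroendocrine markers (979.8 CPM, against 1272 to 2259), and in GFP-high cells for stem cell markers (4654 CPM, against 4810 to 5513). Markers of the proximal small intestine summed to 384 CPM in KO 2 and 272 to 367 CPM in the other 4 in GFP-low cells, and to 213 CPM in KO 2 and 185 to 202 CPM in the other 4 in GFP-high cells. Distal markers summed to 39.3 CPM in KO 2 and 17.8 to 24.5 CPM in the other 4 in GFP-high cells. In GFP-low cells the distal sum of KO 2 lay within the other 4 (178.0 CPM, against 121.1 to 178.5). The part of these in the high lipid gene levels of KO 2 was not tested.

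Among 8229 other genes, those whose deviations were most like the mean standardised deviation of the 10 were Aldh1a1 (Pearson r = 0.93 over 20 libraries), Mal2 (0.91), Apol10a (0.87), Coro2a (0.87), Ccdc93 (0.87), Mogat2 (0.86), Slc35g1 (0.84), Serpinb6a (0.83), Hkdc1 (0.82) and Reg3a (0.82). For Fabp6 alone they were Dda1 (0.85), Clec2h (0.84), Itpka (0.83), Hectd3 (0.83) and Itpk1 (0.82). They were picked from many by this value.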

How the data were processed

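RNA of 20 libraries was analysed from expected counts per gene, deposited by the authors in 1 table per population. The submitters' processing notes name mm10 and, as tools of the authors, RSEM, Bowtie2 and TopHat2. No source used here gives their versions, their roles or the strand setting. The tables held genes with mean counts of at least 17.0 (GFP-high) and 16.8 (GFP-low), so rarer transcripts are not analysed here. Of the values, 13.7% were not whole, and all were rounded. Names altered to dates numbered 16 and 17, and rows sharing a name 34 and 30.

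Tests used edgeR 4.0.16 (quasi-likelihood; R 4.3.3) with TMM scaling, filterByExpr at a minimum count of 10 and Benjamini-Hochberg adjustment over all genes at 0.05, without a block. The tests covered 5 comparisons: KO against WT per population, GFP-low against GFP-high per genotype, and their interaction. DESeq2 1.42.0, DESeq2 size factors, library totals, no filter, all 20 libraries together, a replicate block and leaving out libraries were alternatives. The fits were tested on simulated data. CPM levels were TMM-scaled over the 11284 genes unique in both tables, with a prior count of 2 for logs, and levels per kb used union exon lengths of GENCODE M21. Errors are SE for fold changes and SD for levels.

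Same-numbered GFP-low and GFP-high libraries deviated together from their group means (r from 0.145 to 0.693 in 10 pairs). In 9 of the 10 the own number was the best match, and for KO 3 (r = 0.192) it was not. Such libraries were taken as pairs in the differences by number and in the replicate block, but not in the main tests. The pairing is a reading from the data and not from the labels. No 2 libraries were duplicates: within groups, chi-square per gene was at least 19.4. Each of the 10 genes is named in every comparison. Of the other lipid genes, those passing with the 3 smallest p per role in either genotype are named. Slc27a2 and Soat2, and Ces2a and Creb3l3 between genotypes, were added after their values were seen. The genes most like the 10 averaged a log2 CPM of 3 or more. Members, lists and tests were chosen with earlier results of these data known.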

Additional observations from a re-analysis of the deposited data

Results flagged for a closer look

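In groups of 5 libraries the highest or lowest value was set apart when its gap to the nearest other library exceeded 0.71 of the group's range (Dixon's test). Of 40 groups of the 10 genes, 10 had such a library in CPM, each at the high end. Chance gives about 1 in 20 groups for normally distributed values, which CPM need not be, and the 10 genes are not independent of each other. On log2 CPM, a scale added after these values were seen, 4 were left: Apoa1 and Apoa4 in KO 2 GFP-high, Apoa4 in KO 2 GFP-low and Dgat1 in WT 6 GFP-low cells. KO 2 accounted for 5: in GFP-high cells it stood above the other KO libraries with 79.4 CPM of Fabp1, 26.3 CPM of Rbp2, 126 CPM of Apoa1 and 32.1 CPM of Apoa4, and in GFP-low cells with 177 CPM of Apoa4. WT 6 accounted for 3, with 4.69 CPM of Fabp6 and 32.1 CPM of Mttp in GFP-high cells and 281 CPM of Dgat1 in GFP-low cells. KO 5 had 112 CPM of Fabp6 in GFP-low cells, and KO 4 had 30.5 CPM of Apob in GFP-high cells.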

How the results depend on the processing

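GFP-low over GFP-high kept its direction for all 10 genes in both genotypes under every alternative, and its calls for all but Apob (values in the report). Leaving out 1 library gave 9 to 10 of the 10 called in KO and 10 in WT, and 5182 to 5619 genes in KO and 4265 to 4800 in WT. The replicate block of paired numbers changed no call there (9 of 10 and 6458 genes in KO, 10 of 10 and 5840 genes in WT). Between genotypes only numbers 3 and 6 were shared, whose KO and WT libraries did not deviate together (r from -0.32 to 0.04), so the block rests on 4 libraries and numbers that the labels do not tie. With that replicate block, 122 genes (1.04%) and 3 of the 10 (Fabp1, Rbp2 and Apoa1) were called in GFP-high cells and 36 genes (0.306%) and 4 of the 10 (with Apoa4) in GFP-low cells, against 0 of the 10 without it, and values changed sign in GFP-high cells for Fabp6 (-0.74), Apoa1 (-1.36), Apoa4 (-0.51), Apob (0.021) and Mttp (-0.19) and in GFP-low cells for Fabp6 (-0.89). DESeq2 called 143 genes in GFP-high and 12 in GFP-low cells, with 1 of the 10, Fabp1, in GFP-low cells. Leaving out 1 library gave 0 to 1 genes in GFP-high and 1 to 2 in GFP-low cells, and changed signs in GFP-high cells for Apoa1 (-0.80 to 0.81), Apoa4 (-0.45 to 0.31), Rbp2 (-0.68 to 0.11), Apob (-0.18 to 0.069) and Dgat1 (-0.10 to 0.047), in GFP-low cells for Fabp6 (-0.56 to 0.67) and Dgat1 (-0.23 to 0.011), and in the interaction for Apoa1 (-1.75 to 0.026), Apoc3 (-0.50 to 0.037) and Dgat1 (-0.20 to 0.052). Library totals moved the median of all genes by 0.14 in KO against WT GFP-low cells and 0.11 in the interaction, and turned Dgat1 to 0.0040 in GFP-high cells, 0.0088 in GFP-low cells and 0.0047 in the interaction. The cause was not tested. Depth limits the rarest values: Fabp6 rested on 23 counts in its lowest library.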
